A study of Mus musculus with 6 samples.

Results

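The tumour necrosis factor (TNF) ligand and TNF receptor superfamilies were examined in haematopoietic cells taken as primary cells from the bone marrow of mice. Genes were taken by symbol, as those beginning with Tnfsf or Tnfrsf together with Tnf, Lta, Ltb, Fas, Fasl, Cd27, Cd70, Cd40, Cd40lg, Ltbr, Ngfr, Eda, Edar, Eda2r and Relt. This gave 47 of the 21684 genes in the deposited expression table, 19 ligands and 28 receptors. RNA sequencing libraries came from cells transduced with an empty vector (3 libraries) or made to overexpress RUNX1-RARA by transduction (3 libraries), a fusion of the blood transcription factor RUNX1 with the retinoic acid receptor RARA found in variant acute promyelocytic leukaemia. Cells of both groups had thus been transduced. The sources used here give no mouse strain, age, vector promoter or time in culture. They do not say whether libraries came from separate animals or cultures either, so the p-values refer to the spread among libraries, and that spread may be technical.

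TNF superfamily ligands are mostly trimeric membrane proteins that can be shed from the cell surface, and their receptors carry cysteine-rich repeats outside the cell. Receptors with a death domain can engage caspases, whereas many others bind TRAF adaptor proteins and activate NF-kB and stress kinases. A few receptors lack a signalling tail and act as decoys. In the marrow, these proteins are known for inflammatory signalling by myeloid cells, for survival signals to B cells and plasma cells, for bone resorption and for co-stimulation of lymphocytes.

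Values were FPKM (fragments scaled to gene length and library size), a scale per gene length on which different genes can be compared. Each library held between 10375 and 10552 genes at 1 FPKM or more. Depths estimated from the steps between low values ran from 26.7 to 89.9 M reads, highest in empty vector replicate 1, and 1 read of a 2 kb transcript was then worth between 0.0056 and 0.0187 FPKM. Mouse Runx1 stood between 16.7 and 18.7 FPKM with empty vector and between 21.7 and 22.2 FPKM with RUNX1-RARA, and Rara between 11.04 and 13.5 FPKM and between 13.7 and 16.8 FPKM in the same order. Whether reads of the fusion were counted in these genes is not known, so they do not check the labels. Blood cell markers (Ptprc, Cd53, Laptm5, Coro1a and Lcp1) were abundant in all libraries, with a summed level of 1230 to 1270 FPKM with empty vector and 752 to 772 FPKM with RUNX1-RARA. The libraries of a group were alike (lowest Pearson's r of 0.996 across tested genes, which are not replicates), against 0.851 to 0.857 between groups.

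Of the 47 genes, 29 reached 1 FPKM in at least 3 of the 6 libraries and were tested, 18 did not, and 3 of these (Cd70, Ngfr and Tnfrsf19) were listed at 0 throughout. A linear model over all 10901 tested genes (limma) called 23 of the 29 at an adjusted p under 0.05, 9 higher and 14 lower with RUNX1-RARA. That share, 79.3%, lay near the background, since 77.7% of all tested genes were called, 46.0% higher and 31.7% lower. That split depends on the scaling, since 5012 genes were higher and 3457 lower as given and 4106 higher and 4156 lower under TMM scaling (libraries scaled by a trimmed mean of log ratios). Groups did not overlap for 25 of the 29, again near the 79.1% of all tested genes. Changes of at least 2-fold on the log2(FPKM + 1) scale were called for 15 of the 29 (51.7%), against 15.8% of all tested genes. They were 6 higher (6.12% of all tested genes) and 9 lower (9.72%). Of the tested family genes, 10 passed the filter through a single group and so had to differ. They were 5 higher (Tnfsf8, Tnfsf11, Tnfsf4, Tnfsf10 and Tnfrsf9) and 5 lower (Tnfsf13, Tnfsfm13, Tnfsf12, Tnfsf13b and Cd27). These counts and the p-values of these genes are a description only. The median log2 fold change of the 29 was -0.11, against 0.11 for all tested genes, and single genes ran from -3.90 to 2.76.

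**Figure D1:**
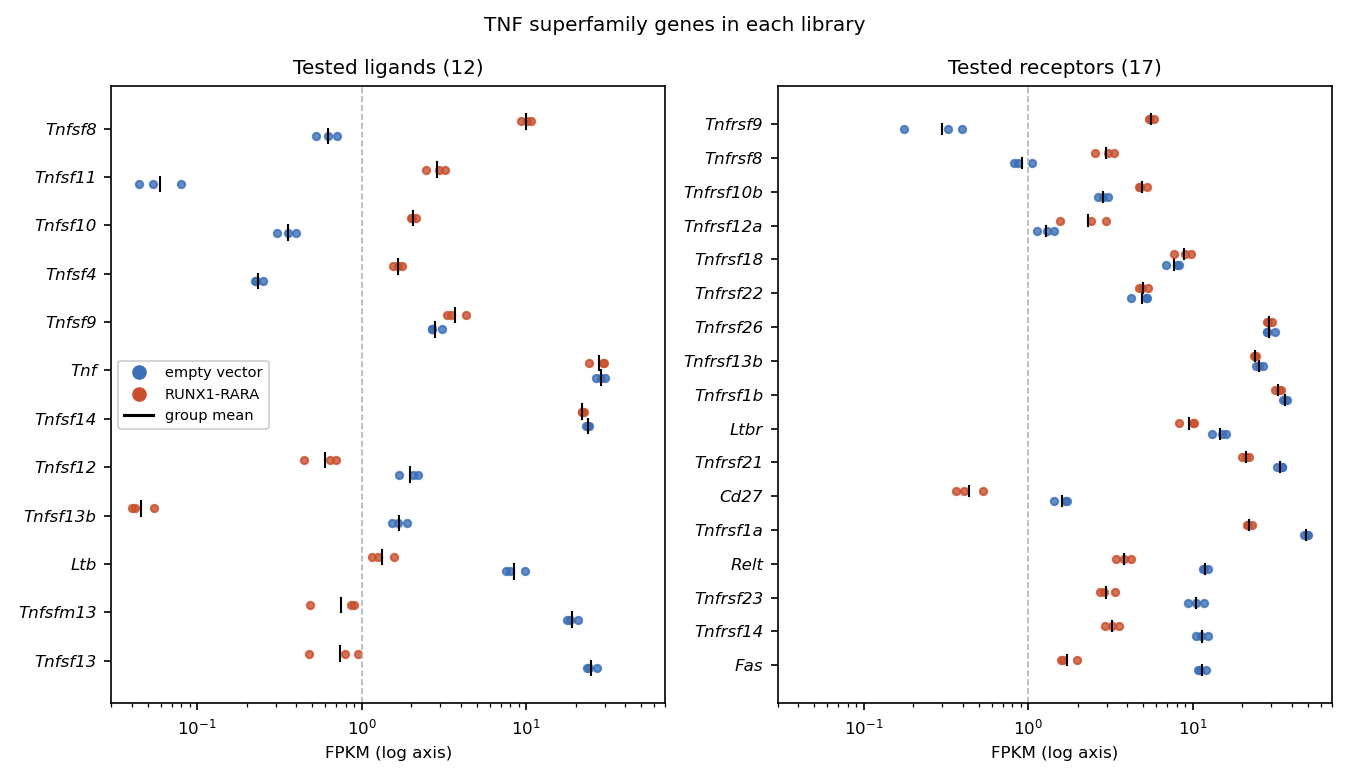
FPKM of the 12 tested ligands and 17 tested receptors in each library on a log axis, with empty vector libraries in blue, RUNX1-RARA libraries in red and group means as black bars. The dashed line marks the filter at 1 FPKM. Tnf stands at the top of the ligands in both groups, and the genes with the widest gaps are Tnfsf8, Tnfsf11, Tnfrsf9, Tnfsf13, Tnfsfm13 and Tnfsf13b.

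**Figure D2:**
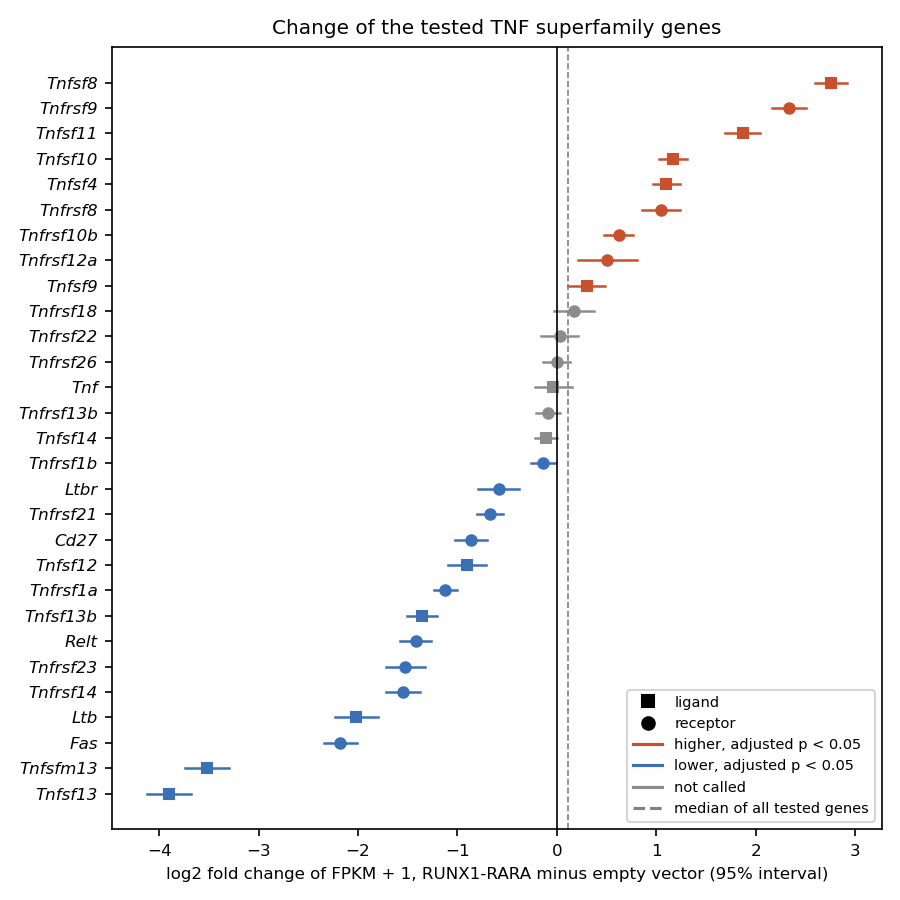
Log2 fold change of FPKM + 1, RUNX1-RARA minus empty vector, with 95% intervals from limma for the 29 tested genes, ligands as squares and receptors as circles. Of these, 9 were called higher, 14 were called lower, and 6 in grey were not called. The dashed line is the median of all tested genes, 0.11.

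The ligand with the highest level in both groups was TNF itself, whose difference was not called. Tnf, the founding inflammatory cytokine of the family (ENSMUSG00000024401, chromosome 17, 35199381 to 35202007 on mm10), stood at 30.2, 26.4 and 28.5 FPKM in empty vector replicates 1, 2 and 3 and at 29.8, 29.2 and 24.1 FPKM in RUNX1-RARA replicates 1, 2 and 3. The groups overlapped, and the 95% interval of the log2 fold change ran from -0.22 to 0.15 (limma adjusted p = 0.694). Its neighbour Ltb, the gene of lymphotoxin beta, which anchors lymphotoxin at the cell surface, fell. It stood at 9.76, 7.56 and 7.98 FPKM with empty vector and at 1.56, 1.16 and 1.25 FPKM with RUNX1-RARA, a 6.37-fold lower mean (log2 fold change -2.02, SE 0.0959, limma adjusted p = 1.88e-08). Lta, which encodes the soluble lymphotoxin alpha, was far lower, between 0 and 0.048 FPKM with empty vector and between 0.054 and 0.249 FPKM with RUNX1-RARA, at most 14.0 estimated reads in any library. The 3 genes lie within a short stretch of chromosome 17 (gaps of 3.1 and 1.2 kb), so neighbours there had quite different levels and changes.

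The survival ligands of B and plasma cells fell, and Tnfsf13 had the most negative log2 fold change of the tested family genes. Tnfsf13, the gene of APRIL, a survival factor for plasma cells (ENSMUSG00000089669, chromosome 11, 69682846 to 69685784), stood at 27.0, 24.1 and 23.4 FPKM with empty vector and at 0.481, 0.944 and 0.796 FPKM with RUNX1-RARA. All RUNX1-RARA libraries were under 1 FPKM, and the mean was 33.5-fold lower (log2 fold change -3.90, SE 0.0986, limma adjusted p = 1.39e-10), which moved the gene from rank 2 to rank 10 among the 19 ligands. Tnfsfm13, annotated as a membrane-bound form spanning Tnfsf12 and Tnfsf13, stood at 20.6, 18.5 and 17.7 FPKM with empty vector and at 0.486, 0.9 and 0.858 FPKM with RUNX1-RARA (limma adjusted p = 2.80e-10). Tnfsf12, the gene of TWEAK, fell 3.33-fold, from 2.04, 1.68 and 2.21 FPKM to 0.445, 0.64 and 0.698 FPKM (limma adjusted p = 4.81e-06). Tnfsf13, Tnfsfm13 and Tnfsf12 passed the filter through the empty vector libraries alone. These 3 genes cannot be told apart fully: Tnfsfm13 shares 60.0% of the exon bases of Tnfsf13 and 48.3% of those of Tnfsf12 on the same strand, and how shared reads were assigned is not given in the sources used here. The ratio of Tnfsf13 to Tnfsfm13 was at least 1.30 in each empty vector library and 0.928 to 1.05 in RUNX1-RARA libraries.

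Tnfsf13b, the gene of BAFF, the main survival factor of mature B cells (ENSMUSG00000031497, chromosome 8, 10006467 to 10039072), lies elsewhere and fell as well. It stood at 1.52, 1.89 and 1.66 FPKM with empty vector and at 0.042, 0.04 and 0.055 FPKM with RUNX1-RARA, a 37.0-fold lower mean. On the log2(FPKM + 1) scale, which understates changes of low genes, this was -1.36 (SE 0.0674, limma adjusted p = 2.57e-08). The RUNX1-RARA values rest on between 7.6 and 15.3 estimated reads, and the gene passed the filter through the empty vector libraries alone. Myeloid cells are a known source of both factors. The summed level of the 8 monocyte and macrophage markers lay between 5530 and 6030 FPKM in empty vector libraries and between 629 and 674 FPKM with RUNX1-RARA, with 7 of 8 called lower. That of the 8 neutrophil markers lay between 55700 and 62700 FPKM and between 2470 and 3040 FPKM in the same order, with all 8 called lower. Of all tested genes, 31.7% were called lower. Msr1, Mrc1, Ly6g and Retnlg passed the filter through the empty vector libraries alone and so had to be lower. None of these markers was at 0 in all libraries, but Msr1 was at 0 in RUNX1-RARA replicates 1 and 2 and Retnlg in RUNX1-RARA replicate 1. The 7 mast cell and basophil markers rose in sum, from 1750 to 1860 FPKM with empty vector to 2730 to 2870 FPKM, with 3 called higher and 3 lower. Cpa3 (mean 554 to 1860 FPKM) rose by more than the sum did, so the others together did not rise. The lower ones were Prss34 (mean 283 to 7.21 FPKM), Ms4a2 (67.3 to 15.8 FPKM) and Fcer1a (57.1 to 0.582 FPKM). Of these, Fcer1a passed the filter through the empty vector libraries alone. The 7 dendritic cell markers summed to 125 to 135 FPKM and to 20.3 to 24.2 FPKM, with all 3 tested called lower. In bulk RNA, fewer cells of a type and less RNA per cell cannot be told apart, and the part of these cell types in the ligand levels was not tested.

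Tnfsf8, Tnfsf11, Tnfsf4 and Tnfsf10 rose from low levels. Tnfsf8, the gene of CD30 ligand (ENSMUSG00000028362, chromosome 4, 63831308 to 63861347), stood at 0.62, 0.527 and 0.712 FPKM with empty vector and at 9.26, 10.7 and 10.03 FPKM with RUNX1-RARA. All RUNX1-RARA libraries lay far above the controls, with a 16.1-fold higher mean (log2 fold change 2.76, SE 0.0712, limma adjusted p = 1.59e-10), and Tnfsf8 went from rank 9 to rank 3 among ligands. Tnfsf11, which encodes RANKL, the ligand that drives osteoclast formation (ENSMUSG00000022015, chromosome 14, 78277445 to 78308043), stood at 0.08, 0.044 and 0.054 FPKM with empty vector and at 2.46, 3.22 and 2.96 FPKM with RUNX1-RARA, 48.5-fold higher (log2 fold change 1.87, SE 0.0778, limma adjusted p = 6.65e-09). The control values rest on 4.0 to 16.1 estimated reads, so this fold is loosely bounded.

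Tnfsf4 (OX40 ligand) rose 7.04-fold, from 0.224, 0.252 and 0.229 FPKM to 1.55, 1.66 and 1.76 FPKM (limma adjusted p = 5.77e-08). Tnfsf10 (TRAIL, a ligand of death receptors) rose 5.77-fold, from 0.305, 0.358 and 0.4 FPKM to 1.99, 2.01 and 2.14 FPKM (limma adjusted p = 3.76e-08). Neither gene's groups overlapped. Tnfsf8, Tnfsf11, Tnfsf4 and Tnfsf10 were under 1 FPKM in all controls and passed the filter through the RUNX1-RARA libraries alone. Of the 9 T and NK cell markers that were measured, 5 (Cd3e, Cd4, Cd8a, Ncr1 and Klrb1c) were under 0.2 FPKM in all libraries, Ncr1 at 0. The others moved in both directions: Lck rose from 0.655 ± 0.206 to 3.03 ± 0.127 FPKM and Cd28 fell from 4.85 ± 0.185 to 0.109 ± 0.0737 FPKM (limma adjusted p = 3.11e-07 and 3.23e-10), each passing the filter through a single group. Under the filter, Cd3g stood between 0 and 0.096 FPKM with empty vector and between 0.673 and 1.25 FPKM with RUNX1-RARA, and Cd3d between 0.384 and 0.493 FPKM and between 0 and 0.072 FPKM. The sum of the 9 ran from 5.88 to 6.15 FPKM with empty vector, most of it Cd28, and from 3.91 to 4.49 FPKM with RUNX1-RARA, most of it Lck. The part of these cells in the ligand levels was not tested.

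The other tested ligands had small differences. Tnfsf9, the gene of the 4-1BB ligand, stood at 3.09, 2.66 and 2.66 FPKM with empty vector and at 3.49, 4.29 and 3.30 FPKM with RUNX1-RARA, so the groups did not overlap. The log2 fold change was 0.30 and was called (SE 0.0866, limma adjusted p = 0.00925), and the call was lost under TMM scaling (0.21, adjusted p = 0.059), which moves the median of all tested genes by -0.11. An antisense gene, Gm11110, overlaps 14.9% of the exon bases of Tnfsf9. Tnfsf14, which encodes LIGHT, a ligand of HVEM and of the lymphotoxin beta receptor, stood at 23.2, 23.8 and 24.1 FPKM with empty vector and at 22.3, 21.8 and 21.7 FPKM with RUNX1-RARA. Every RUNX1-RARA library was below every control, but the log2 fold change was -0.11 and was not called (95% interval -0.22 to 0.00, limma adjusted p = 0.0685), while TMM scaling gave a call (-0.22, adjusted p = 0.00159). Summed over all 19 ligands, the level was 112 ± 5.8 FPKM with empty vector and 73.7 ± 3.37 FPKM with RUNX1-RARA (mean ± SD over 3 libraries each, as for all such values). The sum includes Tnfsf13 (mean 24.8 to 0.74 FPKM) and Tnfsfm13 (18.9 to 0.748 FPKM), which share exon bases. Their falls together exceed that of the sum, so the summed mean of the other ligands was not lower with RUNX1-RARA.

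Among receptors, those that bind TNF parted. Tnfrsf1a, the gene of the death-domain receptor TNFR1 (ENSMUSG00000030341, chromosome 6, 125349362 to 125362484), was the receptor with the highest level in controls, at 49.8, 47.5 and 49.3 FPKM, and stood at 23.0, 21.5 and 21.3 FPKM with RUNX1-RARA. It fell 2.23-fold (log2 fold change -1.12, SE 0.0529, limma adjusted p = 1.80e-08). Tnfrsf1b, the gene of TNFR2, which has no death domain and binds TRAF2, stood at 36.2, 35.3 and 37.4 FPKM with empty vector and at 33.3, 34.1 and 31.4 FPKM with RUNX1-RARA. Its fall was small (log2 fold change -0.14, SE 0.0537, limma adjusted p = 0.04) and lost its call without any single library except RUNX1-RARA replicate 2, with values from -0.15 to -0.10 and adjusted p from 0.0516 to 0.123 where it was lost. Tnfrsf1b thereby took rank 1 among the 28 receptors with RUNX1-RARA and Tnfrsf1a rank 4.

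The other death-domain receptors moved in both directions. Fas, the receptor of Fas ligand and a known p53 target (ENSMUSG00000024778, chromosome 19, 34290666 to 34327772), stood at 11.1, 12.1 and 10.7 FPKM with empty vector and at 1.62, 1.57 and 1.98 FPKM with RUNX1-RARA. This was the most negative log2 fold change of the tested receptors (-2.18, SE 0.0747, 6.55-fold lower mean, limma adjusted p = 1.47e-09). Tnfrsf21, the gene of death receptor DR6, fell 1.62-fold, from 34.9, 32.3 and 34.9 FPKM to 22.03, 21.1 and 19.8 FPKM (limma adjusted p = 2.34e-06). Tnfrsf10b, the mouse TRAIL receptor, rose 1.74-fold, from 3.04, 2.83 and 2.65 FPKM to 5.28, 4.78 and 4.72 FPKM (log2 fold change 0.63, SE 0.0662, limma adjusted p = 9.51e-06). All 4 tested death-domain receptors were thus called, 3 lower and 1 higher, in a table where 77.7% of tested genes were called, while Tnfrsf25 (at most 0.108 FPKM) and Edar (at most 0.02 FPKM) were too low to test and Ngfr was listed at 0.

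A cluster on chromosome 7 holds Tnfrsf26, Tnfrsf22 and Tnfrsf23, rodent receptors of which the latter pair are decoys for TRAIL, with gaps of 6.1 and 16.1 kb. Tnfrsf23 fell 3.51-fold, from 11.6, 9.32 and 10.4 FPKM to 2.72, 3.34 and 2.87 FPKM (log2 fold change -1.53, SE 0.0861, limma adjusted p = 7.15e-08). Tnfrsf22 stood at 5.26, 4.19 and 5.19 FPKM and at 4.87, 5.34 and 4.70 FPKM with overlapping groups (95% interval of the log2 fold change -0.16 to 0.21, limma adjusted p = 0.791). Tnfrsf26 stood at 31.4, 28.0 and 28.1 FPKM and at 28.7, 30.3 and 28.4 FPKM, also overlapping (95% interval -0.14 to 0.13, limma adjusted p = 0.986). The decoys are close copies: 27.4% of the 50-base stretches of Tnfrsf22 transcripts and 19.3% of those of Tnfrsf23 also occur in transcripts of another gene, for each mostly the other decoy, so their levels are uncertain.

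Of the receptors known from T cell co-stimulation, those for 4-1BB and CD30 rose. Tnfrsf9, the gene of 4-1BB (ENSMUSG00000028965, chromosome 4, 150914562 to 150946102), stood at 0.176, 0.324 and 0.398 FPKM with empty vector and at 5.52, 5.39 and 5.78 FPKM with RUNX1-RARA. It rose 18.6-fold (log2 fold change 2.34, SE 0.0743, limma adjusted p = 8.07e-10) and passed the filter through the RUNX1-RARA libraries alone. Tnfrsf8, the gene of CD30, rose 3.25-fold from 1.05, 0.821 and 0.862 FPKM to 3.32, 2.55 and 3.04 FPKM (log2 fold change 1.05, SE 0.0839, limma adjusted p = 1.09e-06). Tnfrsf18, the gene of GITR, stood at 8.20, 6.86 and 8.01 FPKM and at 8.89, 9.78 and 7.69 FPKM with overlapping groups (95% interval of the log2 fold change -0.03 to 0.37, limma adjusted p = 0.108). Without RUNX1-RARA replicate 3 the change of Tnfrsf18 was 0.25 and was called (adjusted p = 0.0173). Some reads of Tnfrsf18 may belong to the antisense gene Gm16008, which overlaps 27.2% of its exon bases, since strand use in counting is not given. Cd27, a receptor of lymphocytes and of some progenitors, went the other way, from 1.43, 1.68 and 1.72 FPKM to 0.409, 0.53 and 0.363 FPKM (3.71-fold lower, limma adjusted p = 1.56e-06). It passed the filter through the empty vector libraries alone.

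Receptors of LIGHT and lymphotoxin fell. Tnfrsf14, the gene of HVEM, stood at 11.2, 10.5 and 12.3 FPKM with empty vector and at 3.55, 2.92 and 3.22 FPKM with RUNX1-RARA, 3.51-fold lower (log2 fold change -1.55, SE 0.0762, limma adjusted p = 2.49e-08). Ltbr, the lymphotoxin beta receptor, known for activating the non-canonical NF-kB branch, fell 1.55-fold, from 15.1, 13.1 and 15.9 FPKM to 10.2, 10.01 and 8.21 FPKM (limma adjusted p = 1.82e-04). Relt, a less characterised receptor of blood cells, fell 3.11-fold, from 11.5, 11.7 and 12.3 FPKM to 3.79, 4.20 and 3.43 FPKM (limma adjusted p = 2.27e-08). The groups of these 3 genes did not overlap. Tnfrsf12a, the TWEAK receptor Fn14, rose 1.80-fold but with wide spread, from 1.43, 1.13 and 1.31 FPKM to 2.97, 1.56 and 2.41 FPKM (log2 fold change 0.51, SE 0.135, limma adjusted p = 0.00553).

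Tnfrsf13b, which encodes TACI, a receptor of APRIL and BAFF known from B cells (ENSMUSG00000010142, chromosome 11, 61126755 to 61149372), was among the 5 receptors with the highest levels in both groups. It stood at 26.6, 24.3 and 25.2 FPKM with empty vector and at 23.7, 23.4 and 24.1 FPKM with RUNX1-RARA. The groups did not overlap, the difference was not called (log2 fold change -0.09, 95% interval -0.21 to 0.03, limma adjusted p = 0.139), and TMM scaling gave -0.21 (adjusted p = 0.00521). Of the B and plasma cell markers, Ms4a1, Pax5 and Ebf1 were under 0.2 FPKM in all libraries. Cd79b fell from 2.53 ± 0.196 to 0.284 ± 0.135 FPKM (limma adjusted p = 8.96e-08), passing the filter through the empty vector libraries alone. Under the filter, Cd79a stood at 0.351 ± 0.046 and 0.0613 ± 0.0683 FPKM, Sdc1 at 0.348 ± 0.117 and 0.0893 ± 0.0752 FPKM, and Jchain at 0.18 ± 0.0787 and 0.101 ± 0.0994 FPKM. The part of these cells in the level of Tnfrsf13b was not tested. The other receptors of these ligands were also nearly absent, Tnfrsf13c (BAFF receptor) at no more than 0.118 FPKM and Tnfrsf17 (BCMA) at 0 in all libraries but RUNX1-RARA replicate 3 (0.06 FPKM). Summed over all 28 receptors, the level was 255 ± 9.78 FPKM with empty vector and 182 ± 5.6 FPKM with RUNX1-RARA.

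**Figure D3:**
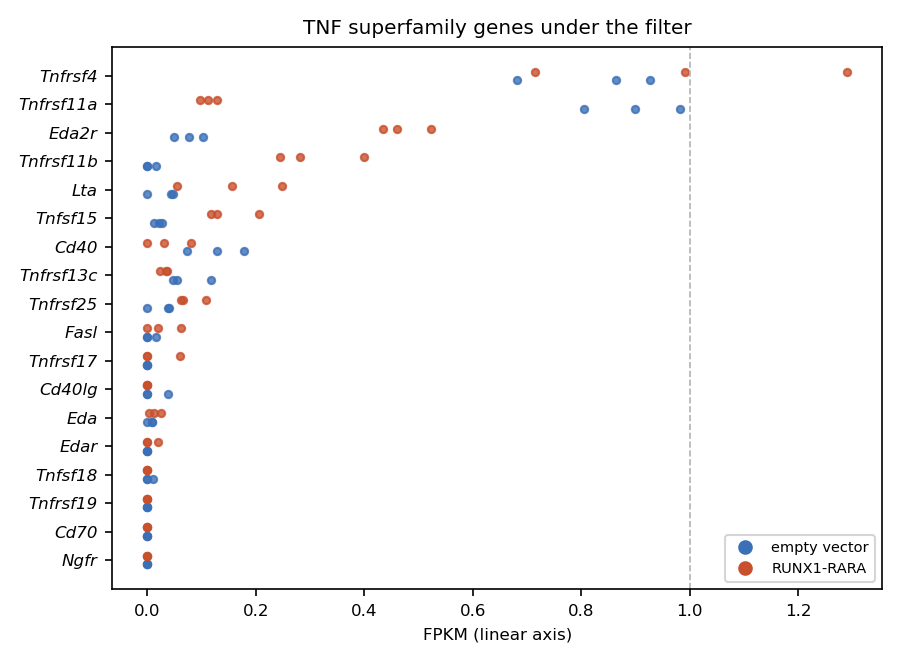
FPKM of the 18 family genes under the filter in each library on a linear axis, empty vector in blue and RUNX1-RARA in red. Without overlap of the groups, Tnfrsf11a and Tnfrsf13c are higher in the controls, and Eda2r, Tnfrsf11b, Lta, Tnfsf15 and Tnfrsf25 are higher with RUNX1-RARA. Cd40 has a higher mean in the controls with overlapping groups, and Cd70, Ngfr and Tnfrsf19 are at 0.

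The 18 genes under the filter were below 1 FPKM in all libraries, except Tnfrsf4 in RUNX1-RARA replicate 2. Tnfrsf11a, the gene of RANK, the signalling receptor of RANKL, stood at 0.806, 0.9 and 0.982 FPKM with empty vector and at 0.112, 0.129 and 0.098 FPKM with RUNX1-RARA. Tnfrsf11b, the gene of osteoprotegerin, the soluble decoy of RANKL, was at 0.016 FPKM in empty vector replicate 1 and at 0 in replicates 2 and 3, and stood at 0.399, 0.281 and 0.244 FPKM with RUNX1-RARA. Thus RANKL and its decoy were higher and RANK lower with RUNX1-RARA, all at low levels. The 8 stromal and endothelial markers summed to 35.2 to 36.3 FPKM with empty vector and 110 to 112 FPKM with RUNX1-RARA. The 2 tested, Pecam1 (mean 34.4 to 92.5 FPKM) and Pdgfrb (0.603 to 18.7 FPKM), were called higher, against 46.0% of all tested genes. Pdgfrb passed the filter through the RUNX1-RARA libraries alone. Col1a1 (0.626 to 0 FPKM) and Kdr (0.182 to 0.0407 FPKM) were lower. The part of these cells was not tested. Eda2r, an ectodysplasin receptor and p53 target, stood at 0.077, 0.102 and 0.05 FPKM and at 0.461, 0.435 and 0.523 FPKM.

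Tnfsf15, the gene of TL1A, stood between 0.013 and 0.027 FPKM and between 0.118 and 0.206 FPKM. Tnfrsf4, the gene of OX40, stood at 0.865, 0.681 and 0.927 FPKM and at 0.714, 1.29 and 0.991 FPKM, with overlapping groups. When no filter was applied, 6 of these 18 were called (limma adjusted p from 5.20e-06 to 0.0406). Tnfrsf11a and Cd40 were lower, and Eda2r, Tnfrsf11b, Tnfsf15 and Tnfrsf25 were higher. Cd70, Ngfr and Tnfrsf19, at 0 throughout, were not in that fit. It covered 5388 genes under the filter that were above 0 in some library, and 33.6% of these were called. Cd40 was at most 0.179 FPKM, from 8.4 to 39.5 estimated reads with empty vector and from 0 to 7.3 with RUNX1-RARA. Fasl (at most 0.063 FPKM), Cd40lg, Tnfsf18, Eda and Edar (at most 0.039 FPKM) rested on at most 5.0 estimated reads in any library.

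Ligands and receptors known to bind each other were set side by side. The 24 pairs used do not hold every known pair, and 11 had both partners tested. In 3 both rose: CD30 ligand with CD30, 4-1BB ligand with 4-1BB, and TRAIL with its death-domain receptor Tnfrsf10b. In each of these, 1 partner (Tnfsf8, Tnfrsf9 or Tnfsf10) passed the filter through the RUNX1-RARA libraries alone and so had to be higher. The call of Tnfsf9 was lost under TMM scaling. In 1 both fell, lymphotoxin beta with its receptor. In 1 they moved apart, TWEAK falling (-0.90) and Fn14 rising (0.51), where TWEAK had passed through the empty vector libraries alone. Of all tested genes, 46.0% were called higher and 31.7% lower, and these pair counts are a description only. In the other 6 pairs at least 1 partner was not called, among them TNF with TNFR1, LIGHT with HVEM, and APRIL and BAFF with TACI. The TRAIL decoys were not among the pairs. TRAIL rose (1.17), whereas the decoy gene Tnfrsf23 fell (-1.53) and Tnfrsf22 was not called (0.03). Of the 47 genes, 24 lie within 500 kb of another, in 9 clusters. Neighbours differed in other clusters too: on chromosome 6, Tnfrsf1a and Cd27 fell further than Ltbr between them (log2 fold changes -1.12, -0.86 and -0.58), and on chromosome 4, Tnfrsf8 rose (1.05) 20.3 kb from Tnfrsf1b (-0.14).

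**Figure D4:**
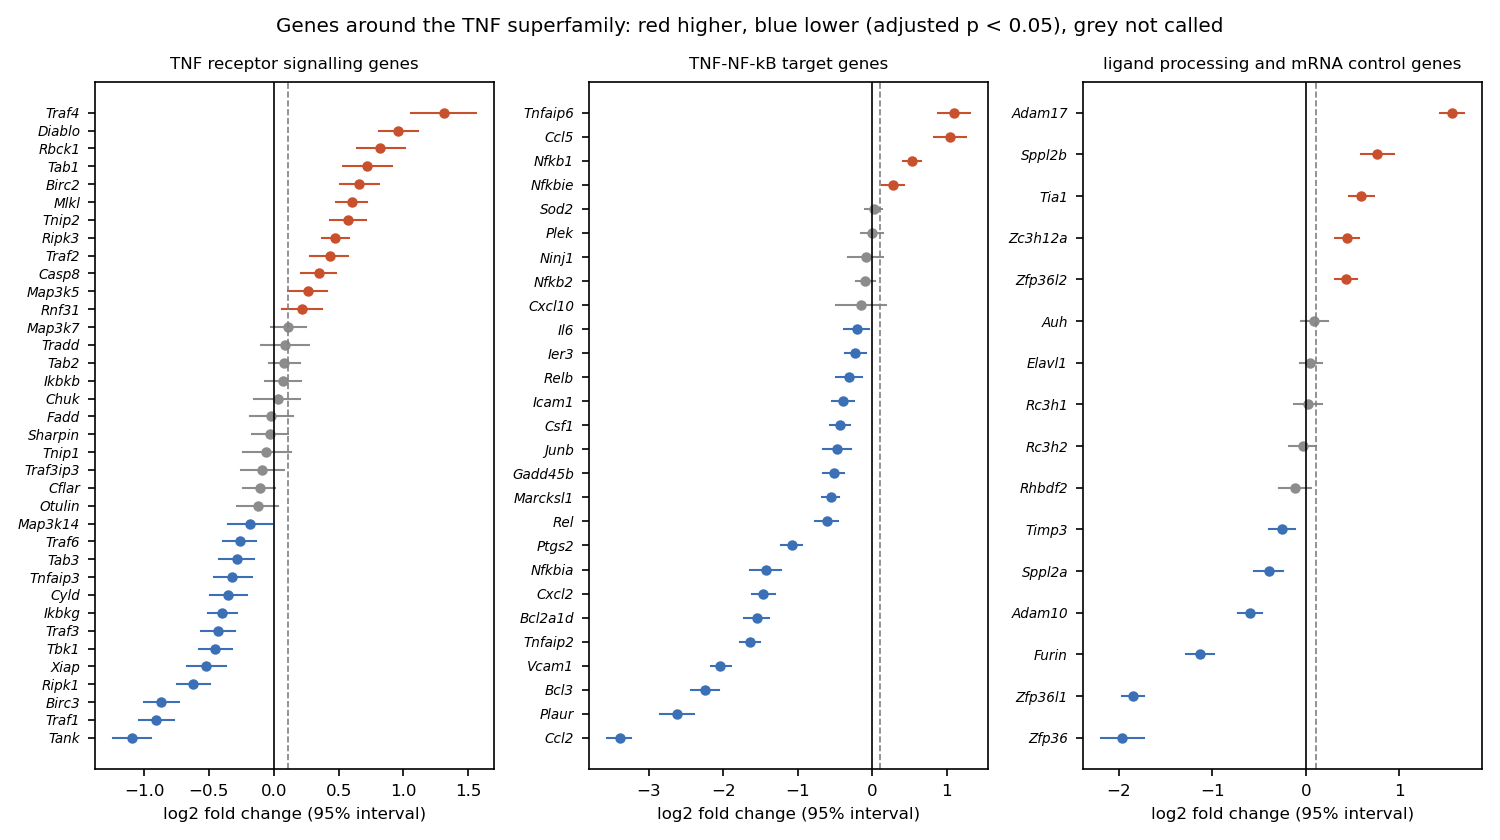
Log2 fold change of FPKM + 1, RUNX1-RARA minus empty vector, with 95% intervals from limma for the tested genes of 3 lists around the family. Points in red were called higher, in blue lower and in grey not called, and the dashed line is the median of all tested genes, 0.11. Tank (-1.09) and Traf4 (1.31) end the signalling list, Ccl2 (-3.39) and Tnfaip6 (1.09) the target list, and Zfp36 (-1.96) and Adam17 (1.56) the processing list. Tnfaip6 passed the filter through the RUNX1-RARA libraries alone.

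Genes that release TNF ligands or control their mRNA moved in both directions. Of 16 tested, 5 rose and 6 fell (68.8%, against 77.7% of all tested genes), with a median log2 fold change of -0.01. Among those that fell, Timp3 passed the filter through the empty vector libraries alone. Adam17, the protease that sheds TNF and both TNF receptors from the surface, rose 3.03-fold, from 27.7, 28.8 and 28.5 FPKM to 86.4, 81.5 and 89.5 FPKM (limma adjusted p = 1.58e-09). Zfp36, the gene of tristetraprolin, which destabilises Tnf mRNA, fell 4.23-fold from 36.7 ± 4.46 to 8.66 ± 1.18 FPKM, and its relative Zfp36l1 3.74-fold from 69.6 ± 1.23 to 18.6 ± 0.755 FPKM (limma adjusted p = 4.11e-08 and 3.21e-10). Furin, a convertase that processes APRIL, BAFF and TWEAK as well as ADAM17, fell 2.26-fold, from 41.5, 36.8 and 39.1 FPKM to 18.3, 17.8 and 15.8 FPKM (limma adjusted p = 1.25e-07). Sppl2b, an intramembrane protease, rose 2.00-fold to 4.66 ± 0.574 FPKM (limma adjusted p = 7.80e-06).

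Signalling genes downstream of the receptors also moved in both directions. Of 36 tested, 12 rose and 13 fell (69.4%, median log2 fold change -0.02). On the log2(FPKM + 1) scale, 2 passed 2-fold, Traf4 and Tank (5.56%, against 15.8% of all tested genes). The folds that follow are ratios of mean FPKM. Traf4 rose 3.34-fold from 1.76 ± 0.235 to 5.90 ± 1.06 FPKM, and Diablo, a mitochondrial inhibitor of IAP proteins, 2.19-fold to 8.47 ± 0.409 FPKM (limma adjusted p = 1.74e-06 and 4.40e-07). Tank, a TRAF-binding adaptor, fell 2.24-fold to 10.4 ± 0.767 FPKM, Traf1, itself an NF-kB target, 5.16-fold to 0.267 ± 0.0374 FPKM, and Birc3 (cIAP2) 1.92-fold to 8.32 ± 0.31 FPKM (limma adjusted p = 1.18e-07, 2.62e-07 and 3.66e-07). Among genes named after their values were seen, the TNFR1 kinase gene Ripk1 fell 1.58-fold from 20.2 to 12.8 FPKM, while genes of the death effectors that act after it rose, Casp8 1.28-fold to 58.9 FPKM, Ripk3 1.40-fold to 35.4 FPKM and Mlkl 1.54-fold to 34.5 FPKM (limma adjusted p from 2.38e-06 to 0.000333). The adaptor genes Tradd and Fadd were not called (log2 fold changes 0.09 and -0.02, limma adjusted p = 0.363 and 0.832).

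Known NF-kB targets of TNF were mostly lower, 18 of 27 tested, with 4 higher (81.5% called, near the 77.7% of all tested genes, of which 31.7% were lower and 46.0% higher) and a median log2 fold change of -0.43. Ccl2, a monocyte chemokine, fell 16.9-fold from 25.0 ± 1.19 to 1.47 ± 0.209 FPKM, Plaur 6.61-fold to 9.87 ± 1.66 FPKM, and Bcl3, an atypical NF-kB inhibitor family protein, 11.6-fold to 0.543 ± 0.157 FPKM (limma adjusted p = 3.91e-11, 4.61e-09 and 2.13e-09). Vcam1, an adhesion molecule, went from 3.20 ± 0.154 to 0.024 ± 0.00781 FPKM and Tnfaip2 from 46.6 ± 0.74 to 14.3 ± 0.96 FPKM (limma adjusted p = 4.30e-10 and 1.97e-09). Vcam1 and Bcl3, like Traf1 above, passed the filter through the empty vector libraries alone and so had to differ, and their p-values are a description only. Of the 4 higher targets, Ccl5 and Tnfaip6 passed through the RUNX1-RARA libraries alone and so had to be higher. Nfkbia, the gene of the inhibitor IkB-alpha (named after its value was seen), fell 2.75-fold from 68.3 ± 4.99 to 24.9 ± 3.47 FPKM (limma adjusted p = 2.61e-07). Several of these genes are also known from monocytes and macrophages, whose markers moved with the groups as given above, and their part was not tested.

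Promoter windows (250 bases before to 50 after the start, from RefSeq on GRCm38.p6, the assembly also called mm10) were matched for 37 of the 47 genes, 41 windows in all. They were searched on both strands for TGTGGT, the core letters bound by RUNX proteins, and for AGGTCA, the letters bound by retinoic acid and related nuclear receptors. TGTGGT was in 6 of the 41 windows (14.6%) and in 16.8% of all 32851 windows, and AGGTCA in 4 (9.8%) and in 16.3% of all. Windows were examined for the 3 genes with the largest rise and the 3 with the largest fall, and 4 of them are shown to let a reader see windows with and without a match, 5′ to 3′ on the gene's strand with matches to either motif in capitals: Tnfsf8 (chr4:63861235-63861534, minus strand), the downstream of 2 windows of Tnfrsf9 (chr4:150927749-150928048, plus strand), Tnfsf13 (chr11:69685505-69685804, minus strand) and Fas (chr19:34290409-34290708, plus strand).
Tnfsf8: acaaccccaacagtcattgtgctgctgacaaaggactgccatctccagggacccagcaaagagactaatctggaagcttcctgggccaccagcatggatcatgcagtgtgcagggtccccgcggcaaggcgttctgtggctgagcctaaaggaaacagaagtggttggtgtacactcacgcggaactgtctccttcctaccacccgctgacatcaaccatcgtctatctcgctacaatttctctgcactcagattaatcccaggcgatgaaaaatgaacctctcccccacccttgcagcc
Tnfrsf9: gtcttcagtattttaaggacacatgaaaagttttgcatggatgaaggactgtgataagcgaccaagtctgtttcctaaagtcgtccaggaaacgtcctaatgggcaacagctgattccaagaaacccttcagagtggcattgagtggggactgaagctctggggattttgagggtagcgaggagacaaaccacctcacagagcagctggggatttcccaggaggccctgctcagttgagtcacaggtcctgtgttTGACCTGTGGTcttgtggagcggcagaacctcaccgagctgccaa
Tnfsf13: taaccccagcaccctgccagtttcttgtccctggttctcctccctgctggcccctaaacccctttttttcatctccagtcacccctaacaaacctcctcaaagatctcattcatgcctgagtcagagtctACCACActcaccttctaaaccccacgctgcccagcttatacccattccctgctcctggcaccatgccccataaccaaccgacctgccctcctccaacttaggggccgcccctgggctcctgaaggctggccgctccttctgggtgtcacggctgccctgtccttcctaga
Fas: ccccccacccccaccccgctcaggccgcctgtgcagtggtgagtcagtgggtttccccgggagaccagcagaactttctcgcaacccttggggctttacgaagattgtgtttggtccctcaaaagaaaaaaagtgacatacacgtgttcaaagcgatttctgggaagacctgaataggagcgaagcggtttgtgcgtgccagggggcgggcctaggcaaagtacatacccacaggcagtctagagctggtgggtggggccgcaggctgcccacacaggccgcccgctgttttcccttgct
In the downstream Tnfrsf9 window the AGGTCA motif (on the opposite strand) and TGTGGT share a letter and begin 6 and 11 bases into the transcript. In Tnfsf13, TGTGGT lies on the opposite strand, beginning 120 bases before the start. The windows of Tnfsf8 and Fas, the upstream window of Tnfrsf9, and those of Tnfsf11 and Tnfsfm13 held neither. Of the 14 windows of genes that fell 1 held TGTGGT and 0 held AGGTCA, and of the 7 windows of genes that rose 1 held TGTGGT and 2 held AGGTCA. A match describes letters in this window and is not evidence of binding.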

How the data were processed

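RNA sequencing was compared between 3 empty vector and 3 RUNX1-RARA libraries, grouped by their genotype label. The authors deposited FPKM values for 21684 genes, rounded to 3 decimals per the file, with FPKM named in the file headers. The submitters' processing notes list DESeq2 (1.32.0), featureCounts (2.0.1), HISAT2 (2.2.1) and fastp (0.22.0), and as builds mm10 and hg38, without roles. Annotation, strand setting and treatment of shared reads are not stated there, so overlapping or near-identical genes are uncertain.

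The step between low values gave an estimate of depth, with exon lengths of GENCODE M21 (mm10), in which 21591 IDs were found. Between 82.7% and 85.9% of low values lay within 0.1 of a whole read (20% by chance), with mostly even numbers, so only relative depths are firm and no count test was run.

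The fit covered the 10901 genes that reached 1 FPKM in at least 3 libraries, on log2(FPKM + 1), with limma 3.58.1 in R 4.3.3 (group term, trended moderation). A call needed an adjusted p (Benjamini-Hochberg over all of them) under 0.05. The script was tested on simulated data. A change given as N-fold is the ratio of the group means in FPKM, and log2 fold changes subtract the empty vector mean from that of RUNX1-RARA. The members, gene lists, markers and alternatives were chosen with earlier results of these data known. Named genes were all members, with every library's value where a group mean reached 1 FPKM, up to 5 called genes with the largest change of each of 3 lists, and markers. For symbols with more than 1 ID the ID with the higher mean was used. The T cell marker Trac had no match and is left out. A further B cell marker and the summed B cell marker level are not reported here. Alternatives were 4 scalings (TMM factors computed directly, without weights), a pseudocount of 0.1, 2 other filters, a replicate block and leaving out each library.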

Additional observations from a re-analysis of the deposited data

How the results depend on the processing

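Of 44 named genes (29 of them family members) each refitted under up to 14 alternatives, 8 changed their call or sign under some alternative, and the other 36 kept both under every alternative that included them. Signs turned only for genes that were not called: Tnf (0.02 after quantile normalization, 0.01 when scaled without mitochondrial and top 1% genes, and -0.09 to 0.06 with 1 library left out), Tnfrsf26 (0.06 after quantile normalization, 0.01 with equal FPKM sums, 0.05 when scaled without mitochondrial and top 1% genes, -0.03 to 0.05 with 1 library left out) and Tnfrsf22 (-0.08 under TMM scaling, -0.02 after quantile normalization, -0.06 to 0.07 with 1 library left out). The cause was not tested. The small fall of Tnfrsf1b also lost its call after quantile normalization (-0.06, adjusted p = 0.321), with equal FPKM sums (-0.12, 0.0713), when scaled without mitochondrial and top 1% genes (-0.09, 0.17) and with the replicate block (-0.14, 0.104). Tnfsf14 was called with no low-value filter (-0.11, adjusted p = 0.0322).

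Requiring 1 FPKM in all 6 libraries left 1 ligand called higher and 1 lower, 2 receptors higher and 2 targets higher, because genes low in a group leave the test, and with no filter 7 receptors were higher. With 1 library left out, ligand calls stayed at 5 higher and 5 lower, and receptor calls ran from 4 to 5 higher and from 8 to 9 lower. Replicate numbers gave no sign of pairing: same-numbered deviations correlated at 0.02, -0.37 and -0.06, and no library correlated best with its own number. Empty vector replicates 1, 2 and 3 correlated best with RUNX1-RARA replicates 2, 3 and 1 (0.36, 0.4 and 0.1). With 3 libraries per group, this check cannot exclude a pairing of small effect. With the replicate block, 4856 genes were higher and 3374 lower, against 5012 and 3457. Levels under about 0.02 FPKM rest on single reads in the shallower libraries.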
